A study of Homo sapiens with 24 samples.

Results

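Epithelial membrane protein 2 (EMP2) overexpressing (OE) ARPE-19 cells were set against vector control (VC) ARPE-19 cells, both kept in normoxia, by total RNA sequencing of 3 libraries per line. The members of the comparison are these 6 of the 24 libraries of the series, taken by their sample titles, and all genes of the count table that passed the count filter, 24873 of 60623. ARPE-19 is an immortalized human line of spontaneous origin from the retinal pigment epithelium (RPE), the pigmented layer behind the photoreceptors. Both lines came from stable retroviral transduction of ARPE-19 cells, OE with an EMP2 construct and VC with the control construct of the same system. The promoter that drove EMP2, and whether a line was a clone or a pool, are not given in the sources used here. The library descriptions call OE replicates 1 and 2 "OE2" and OE replicate 3 "OE1", and what that difference means is not stated. The other groups were wild type (WT) ARPE-19 cells, which carried no construct, and EMP2 knock down (KD) cells made with a lentiviral short hairpin RNA, and each line was also cultured in hypoxia (0.5% oxygen for 4 h).

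EMP2 is a tetraspan membrane protein of the PMP22 family. Proteins of this family sit in lipid-raft domains and change which integrins and other receptors reach the cell surface, and EMP2 is known to act through focal adhesion kinase (FAK) and SRC. The RPE is a main source of vascular endothelial growth factor in the outer retina. In normal oxygen the prolyl hydroxylases (EGLN genes) mark the alpha subunit of hypoxia-inducible factor for destruction by the VHL complex, and when that mark is lost the factor switches on genes such as VEGFA and CA9. The comparison with VC asks which transcripts differed with EMP2 when both lines had been through the same kind of transduction.

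The 6 libraries held 13940314 to 18418463 counts. Levels are given in CPM, a gene's share of its library's counts as edgeR scales it, with library sizes scaled by the trimmed mean of M values, log2 fold changes are OE minus VC, and a gene was called higher or lower when the quasi-likelihood F test of edgeR gave a p under 0.01 after adjustment over all genes tested (Benjamini-Hochberg). All adjusted p-values below come from that test. The SE of a log2 fold change is its absolute size divided by the square root of that test's F statistic. No source used here says whether replicates were separate cultures or transductions, so p-values measure only the spread between replicate libraries. That spread was estimated from all 24 libraries in 8 groups, hypoxic, WT and KD libraries included, and not from these 6 libraries alone. With the 6 libraries alone 4628 genes were called higher and 5619 lower, against 3833 and 4494 with all 24. Counts and floors cover counting error only. EMP2 itself (ENSG00000213853, GRCh38 chromosome 16, 10528422 to 10580632, minus strand) followed the labels, with 620.4, 612 and 527 CPM in OE, against 49.3, 51.99 and 51.03 CPM in VC. All 3 OE libraries lay far above all 3 VC libraries (log2 fold change 3.53 ± 0.09 (SE), adjusted p = 1.8e-23). EMP2 was close to the VC level in WT cells, at 54.3, 55.6 and 53.8 CPM in WT.

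The other members of the PMP22 family were lower in OE than in VC. EMP1 had 99.9, 101 and 103 CPM in OE, against 162, 164 and 178 CPM in VC (log2 fold change -0.73 ± 0.06 (SE), adjusted p = 2.3e-11). EMP3 had 88.8, 87.5 and 79.3 CPM in OE, against 133, 142 and 133 CPM in VC (log2 fold change -0.67 ± 0.09 (SE), adjusted p = 2.1e-07). For PMP22, which also builds peripheral myelin, the values were 42.4, 42.03 and 39.9 CPM in OE, against 45.1, 50.7 and 51.8 CPM in VC (log2 fold change -0.25 ± 0.07 (SE), adjusted p = 0.0077). That last call is near the threshold and was lost when any of 5 of the 6 libraries was left out, VC replicate 1 being the exception. All OE libraries also lay below WT for EMP1, EMP3 and PMP22.

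Before the results, the VC libraries have to be described, because they stood apart from every other line. HOX genes are transcription factors that give position along the body axis, and they are normally silent in eye and forebrain. Of 39 HOX genes looked for, 25 were tested, of which 0 were called higher and 23 lower in OE, where 18.1% of all genes tested were called lower and 15.4% higher. None was higher at an unadjusted p under 0.05, and DESeq2 and limma also called 0 higher. Their median log2 fold change was -8.18 as fitted and -5.34 with the 22 genes that had no count in all OE libraries set at the bound from a floor of 3 counts over the group. Their summed counts were 0 to 10 in each of the 18 OE, WT and KD libraries at both oxygen levels, and 2913 to 4962 in each of the 6 VC libraries. In normoxia the HOX sum was 243.2 to 249 CPM in VC. HOXB3 had 0, 0 and 0.0697 CPM in OE, against 79.01, 78.2 and 81.8 CPM in VC. HOXB6, HOXA3 and HOXB9 had no count in any OE library, and their VC means were 36.1, 32.9 and 32.1 CPM, which made them at least 584-fold lower, at least 532-fold lower and at least 520.2-fold lower in OE.

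The transcription factors that lay down the eye and the RPE showed the opposite difference. Of 8 tested, 6 were called higher in OE and 0 lower (median log2 fold change 1.17, against 0.00 over all genes tested). No member was lower at an unadjusted p under 0.05, nor lower by DESeq2 or limma. OTX2, which specifies RPE, had 102, 99.2 and 103 CPM in OE, against 35.9, 37.6 and 36.4 CPM in VC, with 128, 127 and 138 CPM in WT. SIX3, an eye field factor, had 149, 134 and 141 CPM in OE, against 63.6, 63.3 and 55.99 CPM in VC, with 176, 189 and 169.5 CPM in WT. MITF, the regulator of pigment cell genes, had 144, 149.8 and 159.5 CPM in OE, against 49.2, 61.1 and 53.6 CPM in VC, with 163, 155 and 157 CPM in WT. VC was lowest for these 3 genes, and OE lay below WT for OTX2 and SIX3 and overlapped WT for MITF. PAX6 and LHX2 were placed differently, with every OE library above both VC and WT. PAX6 had 290.2, 292 and 320.1 CPM in OE, against 106, 104 and 112 CPM in VC (log2 fold change 1.49 ± 0.10 (SE), adjusted p = 5e-14), with 115, 109.7 and 113 CPM in WT. LHX2, an eye field factor chosen after its values were seen, had 13.6, 13.2 and 14.6 CPM in OE, against 8.49, 8.42 and 7.54 CPM in VC (log2 fold change 0.75 ± 0.18 (SE), adjusted p = 0.0011), with 1.1, 1.32 and 2.08 CPM in WT, so WT and not VC was lowest. A smaller number of eye-type cells in the VC cultures and less of these RNAs per cell cannot be told apart in bulk samples.

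**Figure D1:**
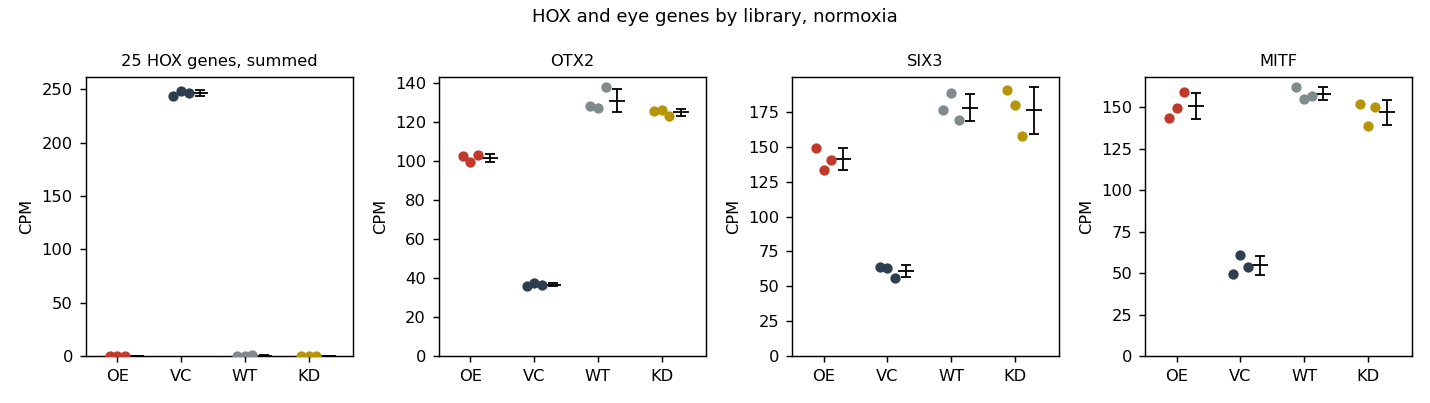
CPM in each normoxic library (points) with the mean and SD (bars, n = 3 libraries) for the sum of the 25 tested HOX genes and for OTX2, SIX3 and MITF in OE, VC, WT and KD cells. HOX reads were at or near 0 in OE, WT and KD and at 243.2 to 249 CPM in VC, while the 3 eye genes were lowest in VC.

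Because of this, a difference between OE and VC joins whatever EMP2 did to whatever separates the VC culture from the other lines, and these cannot be told apart from the 6 libraries. WT levels are therefore given beside the main results. Of the genes tested, 1764 of those called higher had all OE libraries above all 6 VC and WT libraries, and 1617 of those called lower had all OE libraries below them. That position was found for 10.5% (above) and 8.76% (below) of all genes tested. This second way of reading the comparison was chosen after the VC levels had been seen, and WT cells had not been transduced.

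Across the transcriptome 3833 genes were called higher and 4494 lower in OE, 33.5% of those tested. The OE and VC libraries did not overlap for 25.1% of genes in the higher direction and 27.8% in the lower direction. The sizes were unequal. Among called genes 1551 were higher and 2454 lower by at least 1 on the log2 scale, and 23 were higher and 769 lower by at least 5. Folds of genes at or near 0 counts in 1 line are fitted values and no bounds. Without genes at 3 or fewer counts over a group, an alternative chosen after seeing the data, 3767 genes were called higher and 3694 lower. A total of 26 genes had no count in any OE library and at least 10 CPM in each VC library, and 0 genes had the reverse pattern. Of the 26, 23 had no more than 3 counts over the 6 WT and KD normoxic libraries, and the highest count among the 26 in those libraries was 11.

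**Figure D2:**
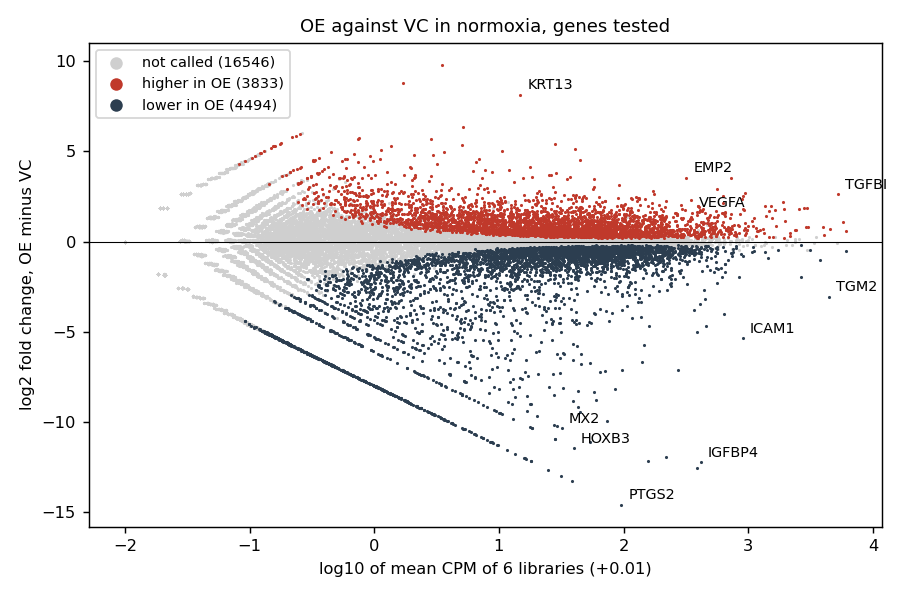
Log2 fold change (OE minus VC) against the log10 of the mean CPM of the 6 libraries for each of the 24873 genes tested, with the 3833 genes called higher in OE, the 4494 called lower and the rest not called. The lower side reaches -14.58 (PTGS2), and EMP2 stands at 3.53.

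The lowest fitted value of all genes tested was that of PTGS2 (cyclooxygenase 2, the inducible enzyme of prostaglandin synthesis), with no count in OE and 189, 198 and 189 CPM in VC, at least 3104-fold lower in OE. It had no count in the WT libraries. MALL (a raft protein of the MAL family), HTATIP2, MYH14 (a nonmuscle myosin heavy chain) and EREG (epiregulin, a ligand of the EGF receptor) were likewise without a count in OE. They were at least 1255-fold lower, at least 1016-fold lower, at least 805-fold lower and at least 587-fold lower. EEF1A2, a translation elongation factor of muscle and neurons, had 0.0621, 0.11 and 0.209 CPM in OE, against 792, 744 and 790.3 CPM in VC. IGFBP4, which binds insulin-like growth factors, had 0, 0.276 and 0.209 CPM in OE, against 833, 855 and 801 CPM in VC. SKAP2, a SRC-associated adaptor that lies next to the HOXA cluster, had 0, 0 and 0.209 CPM in OE, against 300.4, 328 and 309 CPM in VC. WT levels of all these genes were at or below 0.502 CPM, so the VC libraries were the ones that differed from the rest.

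The 5 largest losses of mean CPM were those of TGM2, FTL, FN1, ACTB and ICAM1. TGM2, the tissue transglutaminase that crosslinks matrix proteins, had 983, 895 and 964 CPM in OE, against 8072, 7702 and 7967 CPM in VC (log2 fold change -3.06 ± 0.09 (SE), adjusted p = 9.2e-22), and here OE stood above WT (87.1 ± 2.88 CPM in WT, SD, n = 3). ICAM1, the leukocyte adhesion ligand, had 42.6, 41.3 and 44.5 CPM in OE, against 1802, 1712 and 1781 CPM in VC (log2 fold change -5.37 ± 0.13 (SE), adjusted p = 4.5e-23), with WT at the OE level (43.1, 47.2 and 45.7 CPM in WT). FN1 (fibronectin) had 2766, 2342 and 2353 CPM in OE, against 5538, 4613 and 4816 CPM in VC (log2 fold change -1.004 ± 0.19 (SE), adjusted p = 0.00023), with 1826, 1744 and 1741 CPM in WT, so every OE library lay below VC and above WT. FTL, the ferritin light chain, had 1023, 1004 and 1172 CPM in OE, against 4151, 4003 and 4484 CPM in VC (log2 fold change -1.98 ± 0.15 (SE), adjusted p = 4.4e-10), with 2003, 2068 and 2358 CPM in WT. ACTB, cytoplasmic beta actin, had 5188, 5059 and 4784 CPM in OE, against 7110.1, 7157 and 7055 CPM in VC (log2 fold change -0.50 ± 0.09 (SE), adjusted p = 1.3e-05). For FTL and ACTB every OE library was also below every WT library.

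Among genes of at least 10 CPM in the higher line, KRT13, a keratin of stratified epithelia, had the largest increase, with 32.7, 32.4 and 23.7 CPM in OE, against 0, 0.201 and 0.0661 CPM in VC (log2 fold change 8.13 ± 0.31 (SE), adjusted p = 2.5e-19) and 6.2, 6.25 and 6.6 CPM in WT. SERPINE3, a serpin, had 10.1, 8.72 and 11.8 CPM in OE, against 0, 0.251 and 0.0661 CPM in VC, and WT was near 0. ACTC1, cardiac alpha actin, had 55.1, 56.6 and 54.7 CPM in OE, against 1.34, 1.55 and 0.991 CPM in VC (log2 fold change 5.39 ± 0.18 (SE), adjusted p = 5.3e-20), with 17.2, 17.8 and 19.9 CPM in WT. FBLN2, a fibulin of elastic fibres and basement membrane, had 87.7, 88.7 and 83.01 CPM in OE, against 4.34, 4.16 and 2.84 CPM in VC (log2 fold change 4.50 ± 0.16 (SE), adjusted p = 4.5e-19). MYOCD, the myocardin coactivator of smooth muscle genes, had 13.4, 12.9 and 11.6 CPM in OE, against 0.383, 0.501 and 0.925 CPM in VC (log2 fold change 4.39 ± 0.33 (SE), adjusted p = 2.9e-11), with WT near 0. For each of these 5 genes all OE libraries exceeded all VC and WT libraries.

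Others of the 10 largest increases were TMC3, SLC6A17, DUSP2 and TRO. TMC3 averaged 20.7 ± 1.2 CPM in OE and 0.626 ± 0.218 CPM in VC (SD, n = 3 each). SLC6A17, a vesicular amino acid transporter, averaged 33.6 ± 3.27 CPM in OE, 1.89 ± 0.143 CPM in VC and 13.9 ± 0.138 CPM in WT, and DUSP2, a phosphatase of MAP kinases, averaged 14.5 ± 2.4 CPM in OE, 0.904 ± 0.244 CPM in VC and 1.81 ± 0.585 CPM in WT. TRO (trophinin) differed from them, since OE (13.7, 12.9 and 13.6 CPM in OE, against 0.191, 0.501 and 0.991 CPM in VC) stayed below WT (21.01, 20.2 and 20.5 CPM in WT). The 5 largest gains of mean CPM were those of TGFBI, VIM, CRYAB, SPARC and LTBP3. TGFBI, a matrix protein induced by TGF-beta, had 9224, 8865 and 8974 CPM in OE, against 1511, 1425 and 1409 CPM in VC (log2 fold change 2.64 ± 0.07 (SE), adjusted p = 3.7e-23). CRYAB, the small heat shock protein alpha B crystallin, had 4663, 4609 and 4789 CPM in OE, against 1325, 1311 and 1183 CPM in VC (log2 fold change 1.88 ± 0.10 (SE), adjusted p = 3.8e-16). LTBP3, which holds latent TGF-beta in the matrix, had 4079.5, 3836 and 4109 CPM in OE, against 1191, 1183 and 1032 CPM in VC. TGFBI, CRYAB and LTBP3 were also above WT in every OE library. VIM (vimentin), with 8164, 7889 and 7302 CPM in OE, against 3817, 3823 and 3297 CPM in VC, and SPARC, with 4503, 4374 and 4236 CPM in OE, against 1218, 1253 and 1146 CPM in VC, were not above WT (8489 ± 790.0 CPM in WT and 5702 ± 338 CPM in WT).

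Of the 52 gene lists used to group the results, the counts are read against the 15.4% higher and 18.1% lower of all genes tested. Among expressed genes the background is higher, since 53.7% of genes of 10 to 100 CPM and 61.5% of those of 100 CPM or more were called in either direction. A list called in both directions at about such a share shows nothing particular to its members.

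**Figure D3:**
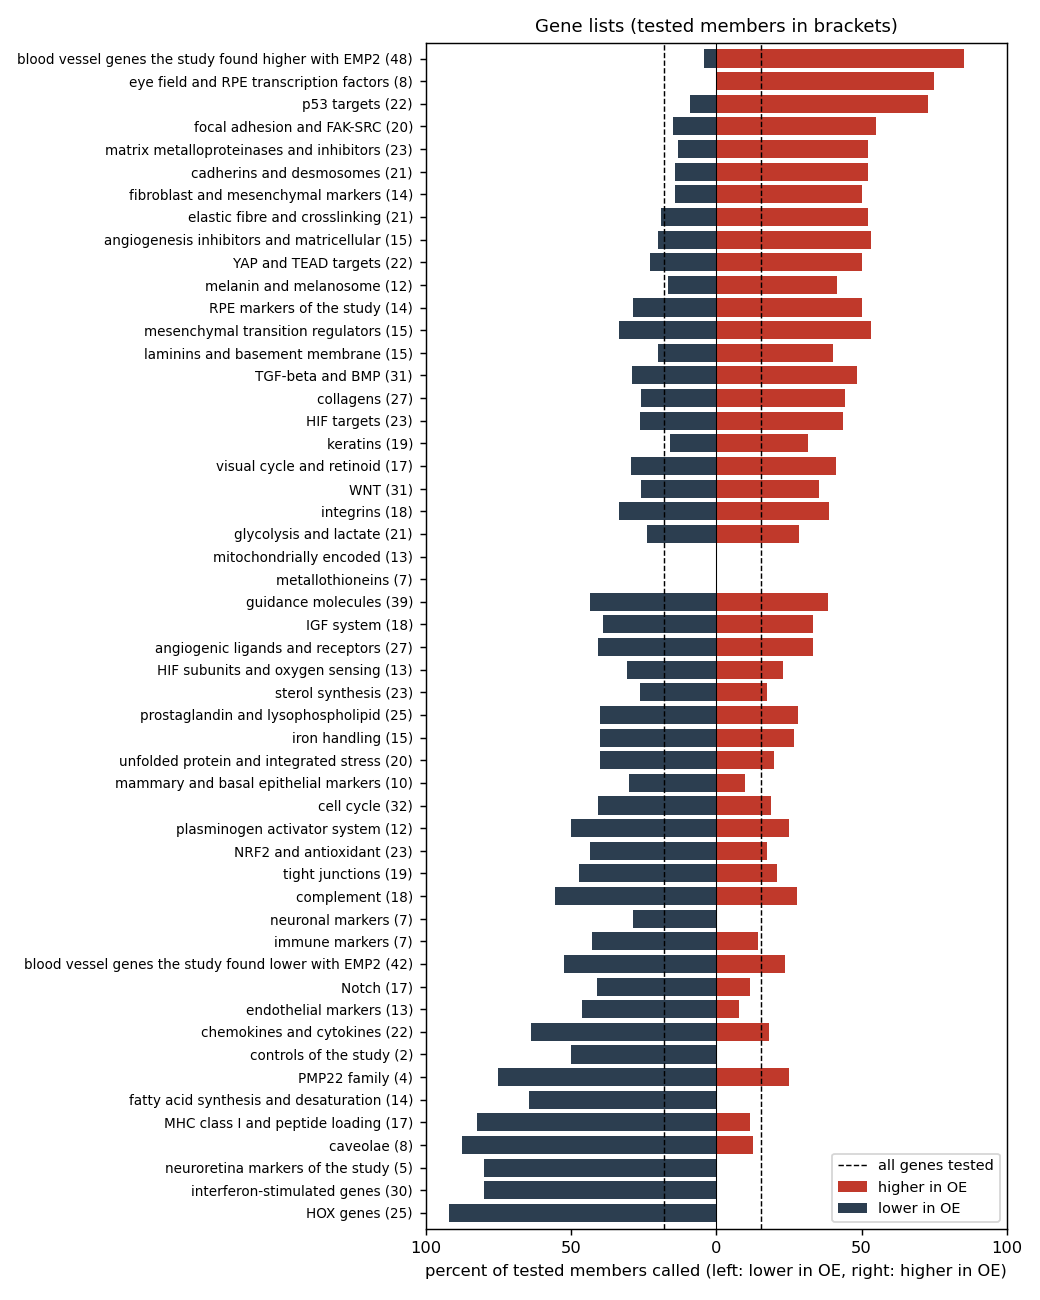
Percent of the tested members of each gene list (numbers in brackets) that were called higher in OE (right) or lower in OE (left), with the percentages over all 24873 genes tested as dashed lines at 15.4 and 18.1. HOX genes, interferon-stimulated genes and the study's neuroretina markers lie at the bottom, and the study's first vessel list, the eye factors and the p53 targets at the top.

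Hypoxia-inducible factor and VEGF were the study's main interest. HIF1A, the oxygen-regulated alpha subunit, had 979, 964 and 1034 CPM in OE, against 507, 548 and 540.2 CPM in VC (log2 fold change 0.90 ± 0.08 (SE), adjusted p = 4.4e-11). VEGFA had 530.0, 527 and 526 CPM in OE, against 182, 169 and 172 CPM in VC (log2 fold change 1.60 ± 0.09 (SE), adjusted p = 2e-15). HIF1A had 607, 587 and 565 CPM in WT and VEGFA had 459, 429 and 379 CPM in WT, so all OE libraries exceeded both lines for both genes. VHL, the ubiquitin ligase subunit that recognises hydroxylated HIF, had 55.2, 59.9 and 61.96 CPM in OE, against 48.4, 52.4 and 56.8 CPM in VC, which overlapped and was not called (log2 fold change 0.17 ± 0.09 (SE), adjusted p = 0.16).

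The oxygen-sensing genes as a list were called in both directions, at about the share called among expressed genes. Of the 13 tested HIF subunits and oxygen sensors 3 were called higher and 4 lower (median log2 fold change -0.04). EPAS1, which encodes the HIF2 alpha subunit, had 334, 318 and 318 CPM in OE, against 505, 462 and 491 CPM in VC (log2 fold change -0.59 ± 0.09 (SE), adjusted p = 2.1e-06), with 1043, 1089 and 1075 CPM in WT. EGLN3, a prolyl hydroxylase that is itself a HIF target, had 1.24, 1.16 and 1.53 CPM in OE, against 24.7, 25.02 and 29.1 CPM in VC (log2 fold change -4.33 ± 0.20 (SE), adjusted p = 1.4e-16), with 0.713, 0.915 and 0.645 CPM in WT, so VC stood far above both. Of the 23 tested HIF targets 10 were called higher and 6 lower (median log2 fold change 0.17). All 10 of the higher ones were above WT as well. CA9, the membrane carbonic anhydrase, had 189.7, 188 and 198 CPM in OE, against 35.4, 39.3 and 35.2 CPM in VC (log2 fold change 2.39 ± 0.10 (SE), adjusted p = 2.7e-18), with 59.97, 62.8 and 66.3 CPM in WT. CA12, a second membrane carbonic anhydrase, had 0.435, 0.441 and 1.32 CPM in OE, against 13.98, 15.04 and 15.5 CPM in VC (log2 fold change -4.38 ± 0.21 (SE), adjusted p = 5.4e-16), with 71.3, 70.9 and 73.6 CPM in WT. Among the lower ones PFKFB4, a regulator of glycolytic flux, had 11.4, 12.9 and 15.8 CPM in OE, against 47.9, 45.7 and 49.97 CPM in VC (log2 fold change -1.85 ± 0.11 (SE), adjusted p = 4.6e-15).

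Genes of sugar metabolism were called in both directions, at no more than the share called among expressed genes. Of the 21 tested glycolysis and lactate genes 6 were called higher and 5 lower (median log2 fold change 0.07). The glucose transporter SLC2A3 had 25.8, 29.7 and 31.2 CPM in OE, against 221, 226 and 204 CPM in VC (log2 fold change -2.91 ± 0.08 (SE), adjusted p = 5.7e-23). WT was near OE for SLC2A3 (26.4, 27.3 and 25.8 CPM in WT). HK2 (hexokinase 2) averaged 63.8 ± 3.87 CPM in OE, 119.6 ± 5.49 CPM in VC and 27.1 ± 0.856 CPM in WT (SD, n = 3 each), so OE lay between the other lines. PGAM1 (phosphoglycerate mutase) averaged 67.3 ± 1.95 CPM in OE, 42.2 ± 0.584 CPM in VC and 30.998 ± 1.56 CPM in WT, and LDHB (lactate dehydrogenase B) averaged 14.6 ± 1.08 CPM in OE, 6.46 ± 0.487 CPM in VC and 10.77 ± 0.841 CPM in WT, both above VC and WT in every OE library.

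**Figure D4:**
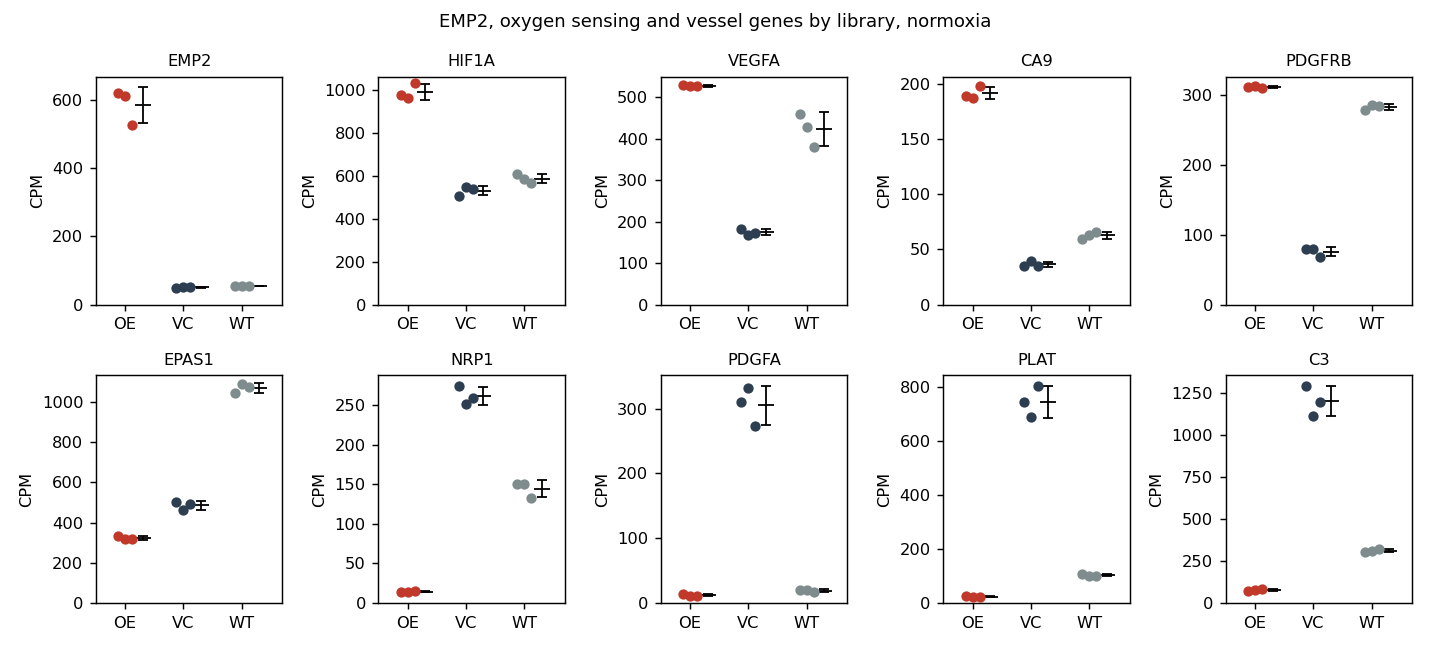
CPM in each normoxic library (points) of OE, VC and WT cells with the mean and SD (bars, n = 3 libraries) for EMP2, HIF1A, VEGFA, CA9, PDGFRB, EPAS1, NRP1, PDGFA, PLAT and C3. OE lies above VC in the first 5 panels and below VC in the other 5, and EPAS1 is highest in WT.

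Genes that signal to vessels split in both directions. Of 27 tested angiogenic ligands and receptors 9 were called higher and 11 lower (median log2 fold change -0.004). Among the ligands, PDGFA (a platelet-derived growth factor chain) had 13.9, 11.1 and 10.9 CPM in OE, against 310.3, 332 and 273 CPM in VC (log2 fold change -4.67 ± 0.15 (SE), adjusted p = 8.1e-19), with 20.3, 20.3 and 16.7 CPM in WT. PGF (placental growth factor, a ligand of the first VEGF receptor) had 0.124, 0.165 and 0.139 CPM in OE, against 5.43, 5.72 and 5.68 CPM in VC (log2 fold change -5.21 ± 0.34 (SE), adjusted p = 9.5e-14). ANGPT1, the ligand that activates the TIE2 receptor, had 0.124, 0.11 and 0 CPM in OE, against 7.85, 8.67 and 11.2 CPM in VC (log2 fold change -6.68 ± 0.42 (SE), adjusted p = 3.3e-14). ANGPT2, its antagonist, had no count in OE or WT and 2.04, 2.16 and 2.38 CPM in VC, at least 35.5-fold lower in OE. Among the receptors, NRP1 (neuropilin 1, a VEGF coreceptor) had 13.8, 14.4 and 14.8 CPM in OE, against 275, 252 and 259.8 CPM in VC (log2 fold change -4.19 ± 0.08 (SE), adjusted p = 6.7e-26), with 151, 151 and 133 CPM in WT. PDGFRB, the receptor of pericytes and fibroblasts, had 312, 314 and 310.3 CPM in OE, against 79.6, 80.2 and 68.2 CPM in VC (log2 fold change 2.04 ± 0.10 (SE), adjusted p = 1.5e-16). WT was much nearer OE than VC for PDGFRB (278, 286 and 284 CPM in WT). KDR, the main VEGF receptor of endothelium, was called higher at a very low level, with 0.621, 1.27 and 0.627 CPM in OE, against 0, 0.201 and 0.0661 CPM in VC (log2 fold change 3.03 ± 0.50 (SE), adjusted p = 7.4e-06). Every OE library was below WT for KDR (3.46, 3.30 and 3.51 CPM in WT).

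Of 15 angiogenesis inhibitors and matricellular genes 8 were called higher and 3 lower (median log2 fold change 0.70). TNC (tenascin C), a matricellular protein, had 2.11, 1.77 and 1.81 CPM in OE, against 65.3, 51.9 and 64.4 CPM in VC (log2 fold change -4.99 ± 0.18 (SE), adjusted p = 5e-18), with WT at the OE level (1.59, 2.19 and 2.01 CPM in WT).

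The study itself listed blood vessel genes that followed EMP2 across WT, OE and KD cells, and since the OE libraries used here were among those from which it chose them, their counts are not independent evidence. Of its 48 genes higher with EMP2, 41 were called higher and 2 lower against VC (median log2 fold change 1.06). Of its 42 genes lower with EMP2, 22 were called lower and 10 higher (median log2 fold change -0.45). NPPB, the B-type natriuretic peptide, had 60.96, 60.5 and 72.5 CPM in OE, against 5.81, 6.32 and 5.16 CPM in VC (log2 fold change 3.48 ± 0.27 (SE), adjusted p = 3.2e-09). COL4A3, a basement membrane collagen chain whose fragment inhibits angiogenesis, had 101, 101 and 101 CPM in OE, against 13.9, 13.4 and 12.6 CPM in VC (log2 fold change 2.92 ± 0.12 (SE), adjusted p = 8.3e-19). CCN2, a matricellular growth factor, had 2445, 2382 and 1752 CPM in OE, against 619, 589.8 and 447 CPM in VC (log2 fold change 1.99 ± 0.14 (SE), adjusted p = 2.9e-11). The 2 genes of the first list that were lower were CXCL8 (interleukin 8), with 16.96, 17.6 and 16.4 CPM in OE, against 41.5, 41.7 and 53.6 CPM in VC, and HEG1 (a receptor of cell junctions), with 383, 382 and 390.1 CPM in OE, against 948, 928 and 899 CPM in VC. CXCL8 was highest in WT (150.4, 137 and 167 CPM in WT), and HEG1 was lowest in WT (246, 242 and 243 CPM in WT). In the second list C3, the central complement component, had 71.3, 75.1 and 80.4 CPM in OE, against 1294, 1114 and 1199 CPM in VC (log2 fold change -3.99 ± 0.13 (SE), adjusted p = 1.6e-18), with 304, 309.9 and 323 CPM in WT. EGFL7, a secreted vessel factor, had 3.91, 2.59 and 3.0 CPM in OE, against 40.1, 42.6 and 44.7 CPM in VC (log2 fold change -3.75 ± 0.14 (SE), adjusted p = 3.1e-19), with WT near OE (3.07, 3.97 and 3.08 CPM in WT).

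RPE markers checked the labelled cell type. Of the 14 markers that the study used, 7 were called higher in OE and 4 lower (median log2 fold change 0.40). RLBP1, which carries retinaldehyde in the visual cycle, had 51.3, 48.1 and 55.3 CPM in OE, against 17.2, 16.2 and 15.5 CPM in VC (log2 fold change 1.66 ± 0.14 (SE), adjusted p = 2e-11), with 4.22, 3.1 and 4.66 CPM in WT. EFEMP1, a fibulin of the membrane beneath the RPE, had 1937, 1941 and 2161 CPM in OE, against 740.2, 737 and 748 CPM in VC (log2 fold change 1.44 ± 0.07 (SE), adjusted p = 1.6e-17), with 4123, 4106 and 4352 CPM in WT. LAMP2, a lysosome membrane protein, averaged 379 ± 20.5 CPM in OE and 279 ± 20.98 CPM in VC (SD, n = 3 each, log2 fold change 0.44 ± 0.07 (SE), adjusted p = 8.7e-06). RAX, an eye field factor, had 1.55, 1.65 and 1.39 CPM in OE, against 0.574, 1.0 and 0.463 CPM in VC, and its call was lost without VC replicate 3. SERPINF1, which encodes the antiangiogenic factor PEDF, had 0.994, 0.772 and 1.39 CPM in OE, against 8.17, 9.28 and 9.58 CPM in VC (log2 fold change -3.12 ± 0.19 (SE), adjusted p = 1.2e-14), with 17.1, 19.6 and 24.4 CPM in WT. GULP1, a phagocytosis adaptor, had 8.64, 8.88 and 9.55 CPM in OE, against 98.7, 120.1 and 140.5 CPM in VC (log2 fold change -3.73 ± 0.18 (SE), adjusted p = 5.2e-14), with 14.8, 12.5 and 13.3 CPM in WT. TJP1 (zonula occludens 1) had 113, 111 and 103 CPM in OE, against 216, 209 and 206 CPM in VC (log2 fold change -0.95 ± 0.08 (SE), adjusted p = 6.5e-12). RPE65, the isomerase that defines mature RPE, was below 0.3 CPM in every OE and VC library and was not called. BEST1, a chloride channel of the RPE, had 32.3, 25.6 and 32.1 CPM in OE, against 34.2, 28.3 and 42.4 CPM in VC and was not called.

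Pigment and retinoid genes went in both directions. Of 12 melanin and melanosome genes 5 were called higher and 2 lower (median log2 fold change 0.52), and of 17 visual cycle and retinoid genes 7 were higher and 5 lower (median 0.08). TYR (tyrosinase) had 6.9, 7.12 and 6.27 CPM in OE, against 5.81, 5.92 and 3.97 CPM in VC and was not called (adjusted p = 0.052). TYRP1, which acts after tyrosinase, had 3.29, 2.92 and 5.65 CPM in OE, against 9.06, 7.57 and 9.06 CPM in VC (log2 fold change -1.13 ± 0.20 (SE), adjusted p = 5.3e-05), with 56.02, 57.3 and 74.8 CPM in WT. GPNMB, a melanosome glycoprotein, had 1571, 1526 and 1669 CPM in OE, against 665, 655 and 609 CPM in VC (log2 fold change 1.30 ± 0.07 (SE), adjusted p = 5.5e-16), with 2819, 2939 and 3160.2 CPM in WT. SLC45A2, a melanosome transporter, averaged 7.72 ± 0.884 CPM in OE, 2.23 ± 0.378 CPM in VC and 11.9 ± 0.378 CPM in WT, and RAB27A, which moves melanosomes, averaged 14.8 ± 1.49 CPM in OE, 39.01 ± 3.52 CPM in VC and 55.8 ± 4.25 CPM in WT (SD, n = 3 each). The retinol uptake receptor STRA6 had 3.73, 4.25 and 4.46 CPM in OE, against 36.7, 36.4 and 37.4 CPM in VC (log2 fold change -3.15 ± 0.17 (SE), adjusted p = 4.4e-16), with 0.988, 1.22 and 1.0 CPM in WT.

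Neuroretina markers other than GLUL were below 10 CPM in every OE library. Of the 12 used by the study 5 passed the count filter, of which 0 were called higher and 4 lower (median log2 fold change -0.99). No member was higher at an unadjusted p under 0.05, nor by DESeq2 or limma. LHX1, a horizontal cell factor, had no count in OE and 5.55, 6.27 and 6.08 CPM in VC, at least 96.6-fold lower in OE. CALB1 (calbindin) had 0, 0.0552 and 0.139 CPM in OE, against 24.6, 25.3 and 31.1 CPM in VC, and STX1A (syntaxin 1A) had 6.71, 9.27 and 8.15 CPM in OE, against 16.1, 15.5 and 16.6 CPM in VC. GLUL (glutamine synthetase) averaged 143 ± 3.41 CPM in OE and 191 ± 11.9 CPM in VC (SD, n = 3 each, log2 fold change -0.42 ± 0.06 (SE), adjusted p = 1.3e-06). Of the 4 lower members only GLUL was below WT in every OE library (168, 173 and 166 CPM in WT). In WT LHX1 reached at most 0.0717 CPM and CALB1 at most 0.143 CPM. STX1A had 6.58, 7.32 and 7.53 CPM in WT, near OE. PDE6A, of rod photoreceptors, stayed below 0.5 CPM in all 6 libraries. Of the study's control genes, VCP was lower in OE, with 454, 445 and 419.9 CPM in OE, against 711, 679 and 641 CPM in VC (log2 fold change -0.62 ± 0.08 (SE), adjusted p = 4.1e-08), and 446, 462 and 431 CPM in WT. MT-RNR1 had 551, 459.6 and 416 CPM in OE, against 668, 559 and 587 CPM in VC and was not called (adjusted p = 0.037), although it was called lower with the replicate number as a block (adjusted p = 0.0065).

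More matrix genes were called higher than lower. Of 27 tested collagens 12 were called higher and 7 lower (median log2 fold change 0.60). Of 21 genes of elastic fibres and crosslinking 11 were called higher and 4 lower (median 1.12), and of 23 matrix metalloproteinases and inhibitors 12 were called higher and 3 lower (median 0.58). Of those called higher, 9 of 12 collagens, 7 of 11 elastic fibre genes and 7 of 12 metalloproteinase genes were also above WT. The elastic fibre list summed to 9689 to 10220 CPM in OE, 3458 to 3684 CPM in VC and 11030 to 11270 CPM in WT. The metalloproteinase list summed to 6387 to 6457 CPM in OE, 2464 to 2639 CPM in VC and 6660 to 6935 CPM in WT. COL1A1, the main fibrillar collagen chain, had 274, 263 and 213 CPM in OE, against 53.1, 48.1 and 46.4 CPM in VC (log2 fold change 2.34 ± 0.17 (SE), adjusted p = 2.6e-10), with 97.0, 104 and 96.8 CPM in WT. MMP2 (gelatinase A) had 1370.3, 1440.2 and 1685 CPM in OE, against 296, 267 and 323 CPM in VC (log2 fold change 2.34 ± 0.15 (SE), adjusted p = 1.3e-11), with 517, 459 and 495 CPM in WT. MGP, which keeps matrix from calcifying, had 68.2, 65.8 and 73.2 CPM in OE, against 6.19, 5.97 and 4.89 CPM in VC (log2 fold change 3.60 ± 0.16 (SE), adjusted p = 7.2e-13), and it had no count in WT. MFAP4, a microfibril protein, averaged 60.1 ± 7.65 CPM in OE, 11.6 ± 0.757 CPM in VC and 27.1 ± 2.81 CPM in WT (SD, n = 3 each). ADAMTS2, the procollagen N-proteinase, had 12.2, 12.1 and 10.3 CPM in OE, against 0.957, 0.802 and 0.463 CPM in VC (log2 fold change 3.94 ± 0.21 (SE), adjusted p = 6.5e-16), with 68.8, 69.8 and 70.3 CPM in WT.

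COL6A2, COL9A3 and COL13A1, 3 of the 7 collagens called lower, were below 0.3 CPM in every OE library. COL6A2, a chain of the microfibrillar collagen around cells, had 0, 0.0552 and 0.279 CPM in OE, against 457, 402 and 449 CPM in VC. COL9A3, a chain of cartilage collagen, had 0, 0 and 0.139 CPM in OE, against 116, 106 and 101 CPM in VC. For COL13A1, a transmembrane collagen, the values were 0.124, 0.165 and 0.139 CPM in OE, against 29.7, 29.2 and 28.4 CPM in VC, with 5.27, 6.15 and 5.74 CPM in WT. LOXL4, a lysyl oxidase, had 1.18, 1.05 and 1.25 CPM in OE, against 51.1, 52.8 and 51.4 CPM in VC (log2 fold change -5.48 ± 0.13 (SE), adjusted p = 5.2e-24). LTBP1 averaged 9.33 ± 1.0899 CPM in OE, 45.8 ± 3.9 CPM in VC and 15.2 ± 1.02 CPM in WT, and MMP19 averaged 0.333 ± 0.0848 CPM in OE, 4.36 ± 0.529 CPM in VC and 6.11 ± 0.215 CPM in WT (SD, n = 3 each). COL6A2, COL9A3 and LOXL4 were also at or below 0.502 CPM in WT.

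Adhesion receptors and their partners showed a similar split. Of 20 tested focal adhesion and FAK-SRC genes 11 were called higher and 3 lower (median log2 fold change 0.46), but only 3 of the 11 were above WT in every OE library. SRC had 278, 274 and 266 CPM in OE, against 132, 132 and 116 CPM in VC (log2 fold change 1.11 ± 0.10 (SE), adjusted p = 5e-11), with 226, 238 and 208 CPM in WT. NEDD9, a scaffold of FAK signalling, had 112, 111 and 101 CPM in OE, against 19.2, 20.2 and 18.2 CPM in VC (log2 fold change 2.49 ± 0.09 (SE), adjusted p = 5.9e-20), with 139, 139 and 135 CPM in WT. TNS1 (tensin 1) averaged 277 ± 17.98 CPM in OE, 63.2 ± 3.11 CPM in VC and 407 ± 11.3 CPM in WT, and CRKL, an adaptor protein, averaged 120.5 ± 3.01 CPM in OE, 363 ± 10.81 CPM in VC and 106 ± 1.87 CPM in WT (SD, n = 3 each). Of 18 integrins 7 were higher and 6 lower (median log2 fold change -0.25). ITGA4 had 62.6, 65.8 and 63.8 CPM in OE, against 12.5, 12.8 and 11.6 CPM in VC (log2 fold change 2.37 ± 0.09 (SE), adjusted p = 3.8e-19), with 86.6, 77.6 and 86.8 CPM in WT. ITGB4, the hemidesmosome integrin, had 79.6, 83.7 and 84.5 CPM in OE, against 305, 284 and 267 CPM in VC (log2 fold change -1.79 ± 0.13 (SE), adjusted p = 3.3e-11), and the collagen receptor subunit ITGA11 had 4.35, 4.74 and 2.37 CPM in OE, against 28.7, 30.6 and 29.8 CPM in VC (log2 fold change -2.93 ± 0.17 (SE), adjusted p = 3.5e-14). Of 15 laminins and basement membrane genes 6 were higher and 3 lower (median log2 fold change 0.33). LAMA1 had 0.0621, 0.165 and 0 CPM in OE, against 35.1, 30.9 and 34.4 CPM in VC, and NID2 (nidogen 2) averaged 74.2 ± 6.07 CPM in OE, 13.2 ± 0.615 CPM in VC and 234 ± 4.09 CPM in WT.

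Both plasminogen activators were lower in OE. Of 12 tested genes of the plasminogen system 3 were called higher and 6 lower (median log2 fold change -0.13). PLAT, the tissue plasminogen activator, had 26.8, 22.9 and 20.8 CPM in OE, against 745, 688 and 805 CPM in VC (log2 fold change -4.99 ± 0.11 (SE), adjusted p = 6e-25), with 109, 101 and 101 CPM in WT. PLAU (urokinase) had 15.2, 12.9 and 11.2 CPM in OE, against 178, 174 and 193 CPM in VC (log2 fold change -3.79 ± 0.10 (SE), adjusted p = 2e-23), with 107, 107 and 105 CPM in WT. TFPI2, an inhibitor of plasmin and matrix proteases, averaged 673 ± 84.2 CPM in OE, 221 ± 19.3 CPM in VC and 125 ± 14.3 CPM in WT. Thus OE had the lowest levels of both activators among the 3 lines.

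More genes of the YAP and TGF-beta programs were called higher than lower. Of 22 tested YAP and TEAD targets 11 were called higher and 5 lower (median log2 fold change 0.31), and of 31 TGF-beta and BMP genes 15 were higher and 9 lower (median 0.46). Only 7 of the 11 and 7 of the 15 were also above WT in every OE library. IGFBP3 had 2499, 2448 and 2254 CPM in OE, against 638, 623 and 595 CPM in VC (log2 fold change 1.96 ± 0.08 (SE), adjusted p = 9.5e-19), with 444, 481 and 418 CPM in WT. TAGLN (transgelin, an actin-binding protein of smooth muscle) had 1102, 1089.6 and 1010.2 CPM in OE, against 191, 174 and 189 CPM in VC (log2 fold change 2.53 ± 0.11 (SE), adjusted p = 2.6e-16), with 200.2, 215 and 243 CPM in WT. NOG and INHBA, on the TGF-beta and BMP list, were lower. NOG (noggin, a BMP antagonist) had 3.6, 3.64 and 3.14 CPM in OE, against 82.8, 78.5 and 68.7 CPM in VC (log2 fold change -4.46 ± 0.18 (SE), adjusted p = 9.2e-17), and INHBA (the activin A subunit) had 9.63, 7.94 and 5.92 CPM in OE, against 69.9, 73.9 and 74.8 CPM in VC (log2 fold change -3.21 ± 0.12 (SE), adjusted p = 1.2e-19). Of 15 regulators of mesenchymal transition 8 were higher and 5 lower (median 0.88), and SNAI2 and SNAI1 were among the lower ones. SNAI2 had 0, 0 and 0.418 CPM in OE, against 25.98, 25.5 and 26.2 CPM in VC, and SNAI1 had 1.55, 1.82 and 2.02 CPM in OE, against 8.42, 7.07 and 10.2 CPM in VC, with 7.08, 5.74 and 5.95 CPM in WT.

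Against VC, junction and cytoskeletal genes separated by type. Of 21 cadherins and desmosome genes 11 were called higher and 3 lower (median log2 fold change 0.92), while of 19 tight junction genes 4 were higher and 9 lower (median -0.62). CDH2 (N-cadherin) had 653, 646 and 609.8 CPM in OE, against 174, 176 and 150.2 CPM in VC (log2 fold change 1.93 ± 0.07 (SE), adjusted p = 5.9e-20), with 554, 533 and 509 CPM in WT. DSC2 (desmocollin 2) had 80.03, 90.8 and 81.3 CPM in OE, against 21.1, 23.1 and 20.3 CPM in VC (log2 fold change 1.97 ± 0.08 (SE), adjusted p = 1.3e-18), with 44.5, 44.1 and 39.3 CPM in WT. PKP3 (plakophilin 3) averaged 1.15 ± 0.136 CPM in OE, 15.8 ± 1.38 CPM in VC and 1.03 ± 0.0561 CPM in WT. CLDN4 had 2.36, 2.26 and 1.53 CPM in OE, against 45.2, 38.96 and 53.9 CPM in VC (log2 fold change -4.46 ± 0.14 (SE), adjusted p = 1.7e-21), with 1.87, 1.98 and 1.79 CPM in WT. CLDN2, a channel-forming claudin, and JAM3 were higher, at 5.38 ± 0.67 CPM in OE and 1.92 ± 0.217 CPM in VC, and 92.9 ± 1.08 CPM in OE and 46.8 ± 1.37 CPM in VC (SD, n = 3 each). In every OE library 0 of the 4 higher tight junction genes were above WT, and 3 of the 9 lower ones were below it. For cadherins and desmosomes these were 8 of 11 and 1 of 3. The tight junction list summed to 406 to 413 CPM in OE, 690 to 720 CPM in VC and 437 to 463 CPM in WT. Among 19 keratins 6 were higher and 3 lower (median log2 fold change 0.77). KRT7 had 2648, 2686 and 2240.3 CPM in OE, against 792, 774 and 660.4 CPM in VC (log2 fold change 1.77 ± 0.15 (SE), adjusted p = 1.4e-09), and KRT33B averaged 106 ± 4.0 CPM in OE, 9.65 ± 1.49 CPM in VC and 26.96 ± 3.29 CPM in WT. The simple epithelial pair was lower, with KRT8 at 458 ± 15.1 CPM in OE and 924 ± 8.94 CPM in VC and KRT18 at 392.1 ± 11.01 CPM in OE and 917 ± 64.8 CPM in VC (SD, n = 3 each), although OE stayed above WT for both (324 ± 10.96 CPM in WT and 233 ± 17.03 CPM in WT).

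Genes of caveolae, the raft-based membrane pits, were lower with 1 exception. Of 8 tested, 7 were called lower and 1 higher (median log2 fold change -1.39). CAV1 (caveolin 1) had 68.9, 71.9 and 68.7 CPM in OE, against 208, 225 and 264 CPM in VC (log2 fold change -1.74 ± 0.08 (SE), adjusted p = 9.6e-18), with 189.7, 177 and 177 CPM in WT. CAVIN1, the coat protein, had 267, 257 and 229 CPM in OE, against 841, 812 and 769 CPM in VC (log2 fold change -1.68 ± 0.09 (SE), adjusted p = 1.3e-15), with 364, 373 and 319 CPM in WT. CAVIN3 had no count in OE or WT and 5.36, 4.71 and 4.16 CPM in VC, at least 76.8-fold lower in OE. PACSIN2, a membrane-bending protein, was the member called higher, with 78.9, 77.3 and 72.8 CPM in OE, against 54.1, 58.8 and 53.5 CPM in VC. Of the 7 lower members 5 were below WT in every OE library.

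Interferon-stimulated genes were lower in OE with no exception among those called. Of 30 tested, 0 were called higher and 24 lower, and the libraries of 25 did not overlap in the lower direction (median log2 fold change -1.44). No member was higher at an unadjusted p under 0.05, and DESeq2 and limma called 0 higher. Their summed level was 513 to 556 CPM in OE, against 1969 to 2134 CPM in VC, and 766 to 779 CPM in WT. MX2, a GTPase against viruses, had 0.0621, 0.0552 and 0 CPM in OE, against 63.8, 62.7 and 64.5 CPM in VC, with no count in WT. IFITM1, which blocks viral entry and has close paralogs that may share reads, had 0.373, 0.221 and 0.209 CPM in OE, against 118, 128 and 114 CPM in VC, with 0.933, 1.02 and 0.717 CPM in WT. IFI27 had 0.932, 0.552 and 0.627 CPM in OE, against 59.7, 69.4 and 55.1 CPM in VC, with 0.0549, 0.305 and 0.0717 CPM in WT. BST2 (tetherin) had 0.932, 0.717 and 0.976 CPM in OE, against 64.02, 63.8 and 70.0 CPM in VC (log2 fold change -6.24 ± 0.15 (SE), adjusted p = 3.4e-24), with 0.604, 0.508 and 0.932 CPM in WT. In these 4 genes OE and WT were near 1 CPM or below, and VC was the line that expressed them. Over the list, 12 of the 24 had all OE libraries below WT too.

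These genes are known to be switched on through the interferon-stimulated response element, bound by the ISGF3 complex and IRF proteins. A motif made of GAAA, any 2 bases and GAAA was searched on both strands from 250 bases before to 50 bases after the start sites in the RefSeq promoter table (GRCh38.p14). It was found for 16 of the 21 list members with an entry (76.2%), against 4.38% of all 27305 symbols in the table. A match is a description of letters and not a bound site. Overlapping copies were allowed. The stretches below belong to the 3 most changed members with an entry, are written 5′ to 3′ on the gene's strand, and have the motif in capitals (its reverse complement, TTTC, any 2 bases and TTTC, included).
IFITM1 (chr11:313988-314021, plus strand): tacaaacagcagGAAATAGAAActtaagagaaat
IFI27 (chr14:94110616-94110662, plus strand): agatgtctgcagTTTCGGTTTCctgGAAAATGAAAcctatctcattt
BST2 (chr19:17405733-17405772, minus strand): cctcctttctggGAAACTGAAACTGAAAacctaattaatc
The BST2 stretch holds 2 overlapping copies and the IFI27 stretch 2 copies on opposite strands.

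**Figure D5:**
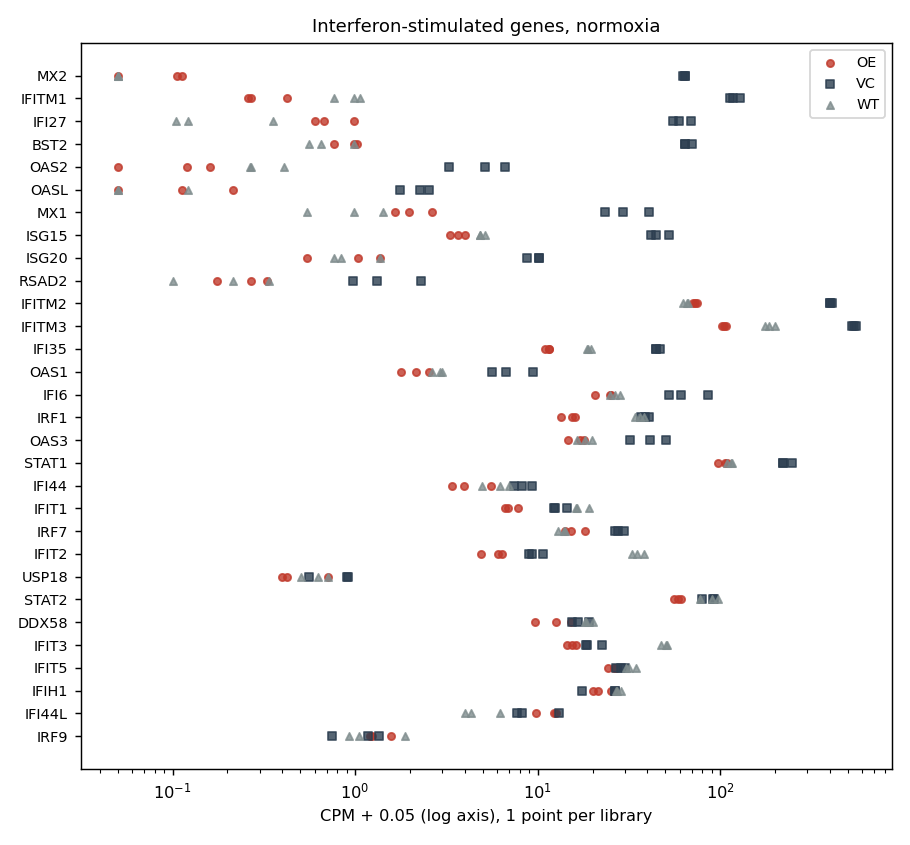
CPM plus 0.05 on a log axis for the 30 tested interferon-stimulated genes in each normoxic library of OE, VC and WT cells, ordered by log2 fold change with MX2 (-10.34) at the top. VC lies to the right of OE in the 24 called members, and in the uppermost 4 genes WT lies with OE near 1 CPM or below.

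Antigen presentation and complement genes were also mostly lower. Of 17 tested genes of MHC class I and peptide loading 14 were called lower and 2 higher (median log2 fold change -1.10), and 12 of the 14 were below WT. B2M, the shared light chain of class I molecules, had 175, 187 and 207 CPM in OE, against 824, 947 and 1047 CPM in VC (log2 fold change -2.31 ± 0.09 (SE), adjusted p = 5.1e-19), with 433, 396 and 466 CPM in WT. TAP2, of the peptide transporter, had 8.02, 7.56 and 6.06 CPM in OE, against 36.5, 36.1 and 36.9 CPM in VC (log2 fold change -2.33 ± 0.12 (SE), adjusted p = 2.9e-16), and the immunoproteasome subunit PSMB9 had 6.15, 5.57 and 4.95 CPM in OE, against 34.7, 35.5 and 38.998 CPM in VC (log2 fold change -2.71 ± 0.14 (SE), adjusted p = 5.5e-16). ERAP2, a peptide trimming enzyme, and CALR, a chaperone, were the 2 higher members, with ERAP2 at 115 ± 5.9 CPM in OE and 75.7 ± 1.86 CPM in VC and CALR at 1609 ± 9.9 CPM in OE and 1351 ± 25.3 CPM in VC (SD, n = 3 each). Of 18 complement genes 10 were called lower and 5 higher (median -1.35). CFB, of the alternative pathway, had 0.559, 0.276 and 0.348 CPM in OE, against 56.04, 62.4 and 67.3 CPM in VC (log2 fold change -7.28 ± 0.19 (SE), adjusted p = 3e-23). C4A and C4B are near-identical copies, so reads may have been split between them, and they had 0.124, 0.11 and 0.279 CPM in OE, against 11.8, 9.88 and 12.9 CPM in VC for C4A and 0.186, 0.165 and 0.697 CPM in OE, against 33.8, 30.1 and 33.2 CPM in VC for C4B. CD55, which protects host cells from complement, was higher, with 105, 97.5 and 91.1 CPM in OE, against 49.1, 51.2 and 56.6 CPM in VC (log2 fold change 0.90 ± 0.08 (SE), adjusted p = 1e-10). Of 22 chemokines and cytokines 14 were lower and 4 higher (median log2 fold change -1.61, or -1.46 with 4 genes at their bound). IL1A had 0.0621, 0 and 0.139 CPM in OE, against 2.36, 3.91 and 3.37 CPM in VC, and the higher members IL18 and CXCL16 averaged 155 ± 10.7 CPM in OE, 53.2 ± 4.79 CPM in VC and 49.2 ± 3.08 CPM in WT for IL18, and 32.8 ± 1.04 CPM in OE, 16.7 ± 2.21 CPM in VC and 29.7 ± 3.12 CPM in WT for CXCL16.

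In fatty acid synthesis the called genes were lower, while sterol genes went in both directions. Of 14 genes of fatty acid synthesis and desaturation 0 were called higher and 9 lower (median log2 fold change -0.55), and the 9 were all below WT. At an unadjusted p under 0.05, 1 member was higher, DESeq2 called 1 higher and limma 0. ACSS2, which makes acetyl-CoA from acetate, had 17.1, 17.8 and 16.2 CPM in OE, against 37.1, 36.2 and 37.5 CPM in VC (log2 fold change -1.11 ± 0.09 (SE), adjusted p = 3e-11), and SREBF1, the regulator of lipid synthesis, had 52.1, 53.7 and 58.3 CPM in OE, against 116, 114 and 106 CPM in VC (log2 fold change -1.03 ± 0.15 (SE), adjusted p = 8.7e-06). Of 23 sterol genes 4 were higher and 6 lower (median log2 fold change -0.04). The sterol carrier STARD4 had 32.2, 30.9 and 34.8 CPM in OE, against 157, 182 and 214 CPM in VC (log2 fold change -2.50 ± 0.14 (SE), adjusted p = 1.2e-12), and every OE library was below WT (59.6 ± 7.93 CPM in WT, SD, n = 3).

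Of 22 genes on the list of p53 targets, which also holds the p53 relative TP63, 16 were called higher and 2 lower (median log2 fold change 0.56). Only 4 of the 16 were above WT. TP63, the p53 relative of basal epithelia, had 44.7, 48.2 and 46.6 CPM in OE, against 3.51, 4.16 and 3.04 CPM in VC (log2 fold change 3.69 ± 0.14 (SE), adjusted p = 2.9e-19), with 8.67, 9.3 and 10.6 CPM in WT. PHLDA3 had 146, 139 and 135 CPM in OE, against 61.97, 65.2 and 55.1 CPM in VC (log2 fold change 1.21 ± 0.14 (SE), adjusted p = 1.1e-07), and ZMAT3 averaged 234 ± 17.0 CPM in OE, 107 ± 10.5 CPM in VC and 262 ± 33.1 CPM in WT. GDF15, a stress cytokine, was the largest decrease, with 0.87, 0.607 and 0.767 CPM in OE, against 13.1, 13.5 and 12.9 CPM in VC. Of 32 cell cycle genes 6 were higher and 13 lower (median -0.19). CDKN2B, an inhibitor of CDK4 and CDK6, had 288, 296 and 319 CPM in OE, against 42.0, 45.8 and 41.3 CPM in VC (log2 fold change 2.81 ± 0.11 (SE), adjusted p = 3.7e-19), with 193, 189 and 192 CPM in WT. CDKN1C averaged 1.45 ± 0.507 CPM in OE, 6.48 ± 0.909 CPM in VC and 3.41 ± 0.681 CPM in WT, and E2F1, which drives entry into S phase, averaged 18.1 ± 1.37 CPM in OE, 37.7 ± 0.525 CPM in VC and 22.8 ± 1.73 CPM in WT (SD, n = 3 each).

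Among 23 NRF2 and antioxidant genes 4 were called higher and 10 lower (median log2 fold change -0.34). GPX3, an extracellular glutathione peroxidase, had 837, 809 and 887 CPM in OE, against 262, 258 and 256 CPM in VC (log2 fold change 1.70 ± 0.08 (SE), adjusted p = 7.3e-18), with 345, 404 and 384 CPM in WT. CAT (catalase) averaged 119.6 ± 1.7 CPM in OE, 82.4 ± 2.37 CPM in VC and 81.1 ± 5.43 CPM in WT. SOD2, the mitochondrial superoxide dismutase, had 122, 133 and 141 CPM in OE, against 408, 462 and 428 CPM in VC (log2 fold change -1.71 ± 0.10 (SE), adjusted p = 1.8e-15), with 620.0, 536 and 652 CPM in WT, and the cystine transporter SLC7A11 averaged 15.7 ± 0.472 CPM in OE, 65.1 ± 9.41 CPM in VC and 49.6 ± 7.55 CPM in WT. Of 15 iron genes 4 were higher and 6 lower (median log2 fold change -0.08). LCN2 (lipocalin 2) had 0, 0.331 and 0.488 CPM in OE, against 83.99, 74.5 and 99.9 CPM in VC. HEPH (hephaestin, the ferroxidase of iron export) had 174, 168 and 192 CPM in OE, against 61.7, 59.2 and 49.6 CPM in VC (log2 fold change 1.65 ± 0.13 (SE), adjusted p = 8.3e-11) and below 0.4 CPM in WT. STEAP3, an iron reductase, averaged 113 ± 4.13 CPM in OE, 56.7 ± 2.58 CPM in VC and 151 ± 5.72 CPM in WT (SD, n = 3 each).

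Signalling lists also held strong single members. Of 18 IGF genes 6 were higher and 7 lower (median log2 fold change -0.63). IGFBP7 had 3129.6, 3048 and 3213 CPM in OE, against 687, 698 and 659 CPM in VC (log2 fold change 2.20 ± 0.15 (SE), adjusted p = 3.7e-11), with 4345, 4463 and 4684 CPM in WT, and the RNA-binding protein IGF2BP3 averaged 21.5 ± 2.89 CPM in OE, 173 ± 9.76 CPM in VC and 29.4 ± 2.52 CPM in WT. Of 17 Notch genes 2 were higher and 7 lower (median log2 fold change -0.80). In every OE library 0 of the 2 higher genes were above WT, and 2 of the 7 lower ones were below it. NOTCH3 had 0.124, 0.165 and 0.209 CPM in OE, against 25.3, 24.3 and 21.2 CPM in VC, and LFNG, which modifies Notch, had 4.54, 4.74 and 2.86 CPM in OE, against 52.97, 55.95 and 47.2 CPM in VC, with WT below 0.1 CPM for NOTCH3 and near OE for LFNG. NOTCH2 and the target HEY1 were the higher members, at 586 ± 12.5 CPM in OE and 281 ± 14.5 CPM in VC for NOTCH2 and 1.81 ± 0.551 CPM in OE and 0.761 ± 0.111 CPM in VC for HEY1 (SD, n = 3 each). Of 31 WNT genes 11 were higher and 8 lower (median -0.24), and the receptor FZD7 averaged 16.4 ± 1.8 CPM in OE, 70.5 ± 3.92 CPM in VC and 17.5 ± 1.77 CPM in WT.

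Of 39 guidance molecules 15 were called higher and 17 lower (median log2 fold change -0.16). SEMA3A, a repellent that binds NRP1, had 3.98, 3.64 and 4.39 CPM in OE, against 92.5, 98.3 and 101 CPM in VC (log2 fold change -4.61 ± 0.12 (SE), adjusted p = 1.2e-23), with 13.2, 11.4 and 12.5 CPM in WT. NTN1 (netrin 1) had 0, 0.0552 and 0 CPM in OE, against 19.79, 19.2 and 21.7 CPM in VC. The receptor PLXNA4 had 11.4, 11.97 and 14.8 CPM in OE, against 1.6, 1.3 and 1.52 CPM in VC (log2 fold change 3.11 ± 0.23 (SE), adjusted p = 2e-12), and UNC5B, a netrin receptor, averaged 68.97 ± 4.33 CPM in OE, 20.6 ± 3.75 CPM in VC and 2.8 ± 0.209 CPM in WT (SD, n = 3 each). Of 25 prostaglandin and lysophospholipid genes 7 were higher and 10 lower (median log2 fold change -0.13). Unlike PTGS2, PTGIS and PTGES were higher in OE. PTGIS (prostacyclin synthase) had 635, 626 and 626 CPM in OE, against 175, 172 and 142 CPM in VC (log2 fold change 1.95 ± 0.08 (SE), adjusted p = 1.4e-18), with 122, 128 and 115 CPM in WT, and PTGES, which makes prostaglandin E2, had 114, 126 and 136 CPM in OE, against 53.2, 56.95 and 50.6 CPM in VC (log2 fold change 1.23 ± 0.12 (SE), adjusted p = 4.2e-09), with 30.1, 38.1 and 40.2 CPM in WT.

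Of 20 genes of the unfolded protein and integrated stress responses 4 were called higher and 8 lower (median log2 fold change -0.34). In 2 lists no gene was called. Of 7 tested metallothioneins and of 13 mitochondrially encoded genes 0 were called in either direction by edgeR. At an unadjusted p under 0.05, 1 metallothionein was higher and 1 lower, and 1 mitochondrial gene was lower. DESeq2 called 1 metallothionein lower and limma 1 higher, and both called 0 mitochondrial genes. With the replicate block 1 mitochondrial gene was called lower, and with the 6 libraries alone 1 was called higher and 7 lower. MT2A had 670.0, 633 and 587 CPM in OE, against 494, 482 and 456 CPM in VC, and MT1E had 80.8, 84.1 and 84.1 CPM in OE, against 102, 96.4 and 107 CPM in VC. Metallothioneins are near-identical paralogs, so reads may be shared among them. With the replicate block MT1E was called lower (adjusted p = 0.0097). The mitochondrial genes summed to 18052 to 20422 CPM in OE, against 18816 to 22424 CPM in VC.

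Markers of other cell types were read in the same libraries, and their part in the results was not tested. Of 13 tested endothelial markers 1 was called higher and 6 lower (median log2 fold change -1.73, or -1.20 with 3 genes at their bound), and their sum was 16.8 to 18.3 CPM in OE, against 66.8 to 72.7 CPM in VC, and 57.5 to 67.5 CPM in WT. PECAM1, which defines endothelium, had no count in OE and 1.91, 2.66 and 1.98 CPM in VC. TIE1 had 0.249, 0.772 and 1.18 CPM in OE, against 6.45, 7.67 and 7.14 CPM in VC. Of 14 fibroblast and mesenchymal markers 7 were higher and 2 lower (median 1.14), with a sum of 1068 to 1126 CPM in OE, against 317 to 335 CPM in VC, and 1127 to 1137 CPM in WT. FAP had 203, 206 and 221 CPM in OE, against 42.3, 41.6 and 48.1 CPM in VC (log2 fold change 2.26 ± 0.08 (SE), adjusted p = 1.9e-20). Of 10 mammary and basal epithelial markers 1 was higher (TP63, above) and 3 lower (median -0.28), with sums of 50.2 to 62.8 CPM in OE, against 48.3 to 64.1 CPM in VC, and 10.3 to 23.1 CPM in WT. EPCAM had no count in OE or WT and 2.43, 2.66 and 2.64 CPM in VC. SFN (stratifin) averaged 0.19 ± 0.176 CPM in OE and 33.9 ± 4.73 CPM in VC, and GATA3 0.0807 ± 0.0259 CPM in OE and 4.33 ± 0.374 CPM in VC (SD, n = 3 each). Of 7 immune markers (median -1.83, or 0.00 with 2 genes at their bound) 1 was higher (CSF1R, 14.3 ± 0.939 CPM in OE and 2.08 ± 0.518 CPM in VC) and 3 lower (CD14 among them, 0.0697 ± 0.121 CPM in OE and 4.55 ± 0.598 CPM in VC), and the sum was 14.7 to 16.1 CPM in OE, against 7.60 to 10.1 CPM in VC, and 5.09 to 5.90 CPM in WT. Of 7 neuronal markers (median -1.06) 0 were higher, also at an unadjusted p under 0.05 and by DESeq2 and limma, and 2 lower (MAP2, 44.8 ± 1.84 CPM in OE and 66.5 ± 2.16 CPM in VC, and TUBB3, 3.95 ± 0.549 CPM in OE and 9.19 ± 0.238 CPM in VC), with a sum of 47.5 to 50.7 CPM in OE, against 76.0 to 79.3 CPM in VC, and 92.5 to 100.4 CPM in WT.

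By chromosome, the median log2 fold change of genes of at least 1 CPM was 0.00 over all 13815 placed genes. Of these 25.9% were called higher and 27.1% lower. Chromosome 18 had the highest median, 0.40, with 99 of 197 genes called higher (50.3%) and 54 lower (27.4%). It was followed by chromosome 4 at 0.24 (213 of 519 higher, 41.0%) and X at 0.20 (168 of 450 higher, 37.3%). The lowest were chromosome 15 at -0.30 (192 of 430 called lower, 44.7%) and chromosome 20 at -0.27 (159 of 368 lower, 43.2%). These are descriptions without a test.

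Both lines were also sequenced in hypoxia. The difference between the OE effect in hypoxia and that in normoxia passed the test for 601 genes in the positive direction and 676 in the negative direction, 5.13% of those tested. Without OE hypoxia replicate 1 these counts were 1042 and 830, and with the 12 OE and VC libraries fitted alone they were 372 and 337. HIF1A and VEGFA went opposite ways in it. The HIF1A log2 fold change was 1.65 in hypoxia and 0.90 in normoxia (difference 0.75 ± 0.11, SE, adjusted p = 1.8e-05). That of VEGFA was 0.56 in hypoxia and 1.60 in normoxia (difference -1.04 ± 0.12, SE, adjusted p = 6.8e-07). CA9 followed VEGFA, with 0.61 in hypoxia and 2.39 in normoxia (adjusted p = 2.3e-10). Unlike in normoxia, in hypoxia every OE library lay below WT for VEGFA and CA9. VEGFA had 569, 633 and 771 CPM in OE and 1201, 1292 and 1232 CPM in WT. CA9 had 184, 282 and 247 CPM in OE and 299.9, 293 and 302 CPM in WT. HIF1A stayed above WT, with 683, 609 and 809 CPM in OE and 281, 257 and 289 CPM in WT. The HOX genes were expressed in VC and near 0 in OE at both oxygen levels.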

How the data were processed

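Total RNA of 24 ARPE-19 libraries was sequenced as 50-base single reads. The deposited count table holds whole-number gene counts that the authors made from reads aligned to GRCh38, and their processing notes name bcl2fastq 2.17, STAR, Partek, edgeR and DESeq2 1.26.0. Whether counting used strand is not given in the sources used here, so overlapping antisense genes are uncertain. The deposited normalized signal table is those counts divided by size factors, since 100% of its 530927 values above 0 gave whole reads within 0.01 reads. All of these equalled the deposited counts. A count test on the recovered reads therefore had the same input and had to return the same calls, 3833 genes higher and 4494 lower. Symbols turned into dates (14) were replaced by the reference symbol of their gene ID, or by the ID where no symbol was found.

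Counts were tested in R 4.3.3 with edgeR 4.0.16 (robust quasi-likelihood, trimmed mean of M values) in 1 fit of all 24 libraries and 8 groups, on genes of at least 10 counts in total, with Benjamini-Hochberg adjusted p under 0.01 as the threshold. DESeq2 1.42.0 and limma 3.58.1 (on log2 of normalized values plus 1) were alternatives, and genes that DESeq2 left without an adjusted p were kept out of its counts. On simulated counts for this comparison (22919 genes), 31, 39, 49 and 49 of 50 genes changed by 1.5, 2, 4 and 8-fold were called in the right direction, and 1 of 22719 unchanged genes was called. All simulated libraries were drawn independently from the VC means, with as many genes raised as lowered. In the data 33.5% of genes were called and the sizes were unequal. The simulation therefore does not show how scaling and false calls behave under such a difference. Replicate numbers come from the labels. Same-numbered OE and VC libraries deviated together (r of 0.168, 0.100 and 0.243 over 13879 genes), while the highest r of differently numbered ones was 0.0517. The library descriptions also carry a set number that matches the replicate number. The main fit had no replicate term, so its SEs and adjusted p-values leave this pairing out. A fit with the replicate block is given where it changes the call of a named gene, with its other effects in the closing section.

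The text names EMP2, the genes the study names, the 10 largest changes in each direction of at least 10 CPM, the 5 largest differences of mean CPM in each direction, genes at 0 in 1 line, and from each of 52 gene lists (875 of 944 genes tested) up to 4 leading members and up to 2 against the majority. Not every gene that met the rule is printed, and some items are not reported here. Members and lists were chosen with earlier results of these data known. Promoter sequences are from RefSeq (GRCh38.p14), and gene positions from GENCODE v44.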

Additional observations from a re-analysis of the deposited data

Results flagged for a closer look

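For 47 of the genes named above, the OE minus VC log2 fold change differed between hypoxia and normoxia by a test of the difference itself (edgeR, Benjamini-Hochberg adjusted p under 0.01). The background was 5.13% of genes tested. The values below are the log2 fold change in hypoxia minus that in normoxia. The 24 positive differences were led by ADAMTS2 (2.88), SLC45A2 (2.22), ACTC1 (1.89), STARD4 (1.72), MAP2 (1.47), PTGES (1.34), TYRP1 (1.34) and PDGFA (1.27). Next came KRT33B (1.27), PTGIS (1.12), TYR (1.11), ITGA11 (1.08), LTBP1 (1.04), NOG (1.03), PDGFRB (0.78) and FZD7 (0.76). The smaller ones were HIF1A (0.75), CRYAB (0.59), MITF (0.58), HEG1 (0.56), GPNMB (0.53), GLUL (0.52), EMP2 (0.50) and SLC2A3 (0.49). The 23 negative differences were led by TNC (-2.60), EGLN3 (-2.46), TIE1 (-2.19), CA12 (-1.89), CA9 (-1.78), CLDN4 (-1.65) and MT2A (-1.47). After them came MT1E (-1.34), SNAI1 (-1.27), VEGFA (-1.04), C3 (-1.03), CXCL8 (-0.88), CRKL (-0.83), STEAP3 (-0.80) and PLAT (-0.78). The remaining ones were IGFBP3 (-0.75), ITGB4 (-0.73), GPX3 (-0.65), SRC (-0.58), PGAM1 (-0.57), EPAS1 (-0.56), CAV1 (-0.54) and FAP (-0.53).

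The effect was larger in hypoxia and in the same direction for 27 of the 47 genes, and it had opposite signs for 4, which were GLUL, TYRP1, MAP2 and MT2A. Of these 4, MAP2 was called at both oxygen levels, GLUL and TYRP1 were not called in hypoxia, and MT2A was not called in normoxia. The sign and the call were kept for 46 of the 47 without OE hypoxia replicate 1, for 32 when only the 12 OE and VC libraries were fitted, for 46 with the replicate block and for 47 with the other scaling of library sizes. No cause was tested.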

How the results depend on the processing

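Of 3227 values of named genes under the alternatives, 3205 kept direction and side of the threshold and 0 reversed. A total of 180 of the 182 called genes kept the call throughout, PMP22 and RAX being the exceptions given above. MT-RNR1, MT2A and MT1E gained a call in 15 values.

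The main comparison called 3833 genes higher and 4494 lower. A minimum absolute log2 fold change of 1 left 1551 and 2454, and WT in place of VC, chosen after seeing the data, gave 2358 and 2541. Leaving out 1 library gave 3348 to 3447 higher and 3928 to 4102 lower (list members, 255 to 261 and 309 to 319). With the replicate block, which pairs libraries of the same number, the counts were 3918 and 4544. The block moved the count of no gene list by more than 1 member in either direction. By over 1.5 times it moved only small counts, which were those given above for metallothioneins, mitochondrial genes and MT-RNR1, the mammary and basal epithelial markers (2 higher and 4 lower with the block, 1 and 3 without it) and the immune markers (2 and 3 with it, 1 and 3 without it). The counts were 3838 and 4500 by DESeq2, 3946 and 4865 by limma, 4121 and 4298 with filterByExpr, 3913 and 4649 with no filter and 4628 and 5619 with the 6 libraries alone.

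The hypoxia minus normoxia difference (601 positive, 676 negative) gave 372 and 337 with the 12 OE and VC libraries alone, and 1042 positive without OE hypoxia replicate 1. The medians of chromosomes 4 and 20 were 0.22 and -0.32 over genes of at least 10 CPM. The cause of these shifts was not tested. Depth limits genes under 1 CPM, of which 8.91% were called, and with 3 libraries per line the separation of VC from the other lines remains part of every value.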
